A study of Mus musculus with 12 samples.

Results

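CpG-poor promoters are gene starts around which few CG dinucleotides have survived, in contrast to the CpG islands that cover most mammalian promoters. They were taken as the 500 bp on each side of the transcription start site (TSS) of the canonical transcript of every protein-coding gene on the autosomes, where 3 to 10 CpGs were listed at both stages and at least 50 reads lay on those CpGs in each of the 4 pools of reads. Of 20621 promoters, 3427 had 3 to 10 listed CpGs, and 3105 of them (15.1% of all promoters) also had the reads. The read limit removed 322 promoters, and another 810 had fewer than 3 listed CpGs. The comparison set was the 16276 promoters with over 10 CpGs that passed the same read limit, of which 3866 had 11 to 30 CpGs and 12410 had more.

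DNA methylation was measured by tagmentation-based whole-genome bisulfite sequencing, in which unmethylated cytosines are read as thymine, in β cells sorted from Myt1cCre; Ngn3nCre; Rosa26eYFP; InsApple mice at postnatal day 2 (P2) and day 60 (P60). Every group carried all of these alleles. The 2 fragments of Cre are made under the control of the genes Myt1 and Neurog3, so that eYFP marks the descendants of progenitors that made both (M+N+), and eYFP- cells descend from the others (M-N+). An eYFP- cell can therefore also be a M+N+ descendant in which Cre was not rebuilt, and the Apple allele lies at Ins2, itself one of the promoters described here. There were 2 libraries each of eYFP- and eYFP+ cells at P2 and 4 each at P60. Every library pooled the cells of several sorts and every sort those of several mice. The labels write eGFP for the reporter and name the cells all islet cells, whereas the sample titles say sorted beta cells.

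Methylation of CpG islands at promoters is rare in normal tissue, and such promoters stay unmethylated in almost every cell type whether or not the gene is used. At promoters with few CpGs, methylation is the usual state, and many tissue-specific genes, such as the insulin genes, lose it in the tissue that expresses them. A stretch of consecutive CpGs with low methylation is called a hypomethylated region (HMR) and often marks promoters and enhancers in use.

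Read counts were deposited per pool, 1 for each stage and subtype, with between 528029992 and 958890813 reads on CpGs, that is 24.4 and 24.6 reads per CpG at P2 and 44.1 and 43.9 at P60. The median CpG-poor promoter held 155 and 156 reads in the P2 pools and 244 and 249 in the P60 pools. Single libraries were deposited only as positions of HMRs, between 57122 and 60968 in the P2 libraries and between 38064 and 49975 in the P60 libraries. All P2 libraries belong to 1 set of file names and the P60 libraries to another 2 sets, so that stage and set cannot be told apart. The sex labels of both P2 eYFP- libraries went against their X chromosome. Of 253 X-linked HMRs present in every male and no female library at P60, the eYFP- library labelled female held 91.7% and the one labelled male 13.4%, against 13.0% and 83.8% in the eYFP+ libraries labelled female and male. The promoters described here are autosomal, and the stage comparison over libraries is also given without those libraries.

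The promoter sequences of 8 genes named in the results are shown. They are the 250 bases before the TSS on the gene's own strand, read 5′ to 3′ from the GRCm39 (mm39) genome, with CpGs in capitals. Kcnk16, Iapp, Slc2a2, Ins2 and Prss53 were β-cell genes with low methylation in all pools. Tmem40 had the largest gain of methylation with stage, and Ins1 and Or10al7 the largest losses. The stretches held between 0 and 3 CpGs, and the remaining CpGs of each window lay further upstream or inside the gene.
Kcnk16, chr14:20319268-20319517, minus strand: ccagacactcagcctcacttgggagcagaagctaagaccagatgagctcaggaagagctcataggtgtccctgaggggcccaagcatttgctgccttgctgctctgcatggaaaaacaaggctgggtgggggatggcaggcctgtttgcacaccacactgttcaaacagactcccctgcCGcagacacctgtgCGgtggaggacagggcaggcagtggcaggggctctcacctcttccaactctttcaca
Iapp, chr6:142243899-142244148, plus strand: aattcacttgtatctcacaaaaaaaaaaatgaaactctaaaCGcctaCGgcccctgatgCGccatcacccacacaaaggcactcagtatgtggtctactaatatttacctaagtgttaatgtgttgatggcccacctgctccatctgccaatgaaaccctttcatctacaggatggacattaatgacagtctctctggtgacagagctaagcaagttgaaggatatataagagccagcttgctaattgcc
Slc2a2, chr3:28751801-28752050, plus strand: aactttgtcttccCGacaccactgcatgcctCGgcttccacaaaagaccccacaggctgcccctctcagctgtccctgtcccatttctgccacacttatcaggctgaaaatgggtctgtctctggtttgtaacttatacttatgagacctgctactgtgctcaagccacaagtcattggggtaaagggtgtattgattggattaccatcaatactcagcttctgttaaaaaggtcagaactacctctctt
Ins2, chr7:142233464-142233713, minus strand: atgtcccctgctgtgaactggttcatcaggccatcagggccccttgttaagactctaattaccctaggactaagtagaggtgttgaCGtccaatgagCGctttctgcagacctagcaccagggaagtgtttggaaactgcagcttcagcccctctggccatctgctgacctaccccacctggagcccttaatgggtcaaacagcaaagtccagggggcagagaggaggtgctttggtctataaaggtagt
Prss53, chr7:127490143-127490392, minus strand: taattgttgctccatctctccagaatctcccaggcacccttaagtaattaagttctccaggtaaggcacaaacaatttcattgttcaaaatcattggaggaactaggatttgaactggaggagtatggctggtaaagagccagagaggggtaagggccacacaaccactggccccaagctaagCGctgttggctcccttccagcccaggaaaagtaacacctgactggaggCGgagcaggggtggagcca
Tmem40, chr6:115739372-115739621, minus strand: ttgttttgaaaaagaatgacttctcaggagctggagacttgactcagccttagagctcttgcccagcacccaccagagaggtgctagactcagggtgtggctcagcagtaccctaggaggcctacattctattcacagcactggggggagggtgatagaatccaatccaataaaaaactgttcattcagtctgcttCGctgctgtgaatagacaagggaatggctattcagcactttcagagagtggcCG
Ins1, chr19:52252485-52252734, plus strand: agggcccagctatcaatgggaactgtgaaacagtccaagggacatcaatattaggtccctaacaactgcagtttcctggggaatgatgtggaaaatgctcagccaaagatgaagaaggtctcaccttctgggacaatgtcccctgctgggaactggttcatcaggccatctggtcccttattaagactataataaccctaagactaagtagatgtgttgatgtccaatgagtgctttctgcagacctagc
Or10al7, chr17:38370971-38371220, minus strand: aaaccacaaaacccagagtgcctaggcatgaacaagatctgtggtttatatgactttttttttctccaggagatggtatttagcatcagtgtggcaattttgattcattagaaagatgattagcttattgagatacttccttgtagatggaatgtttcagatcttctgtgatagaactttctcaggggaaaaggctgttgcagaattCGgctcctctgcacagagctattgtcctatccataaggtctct
The 250 bases of Ins2 held 2 CpGs, 164 and 153 bases before the TSS, and those of its paralog Ins1 none.

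CpG-poor promoters were mostly methylated in β cells. The methylation level of a promoter is the percentage of reads on its CpGs that were methylated. Its median over the 3105 promoters was 69.6% in the P2 eYFP- pool, 70.8% in P2 eYFP+, 65.0% in P60 eYFP- and 64.4% in P60 eYFP+. The middle 50% of the promoters lay between 59.0% and 77.4% in the first of these pools and between 53.4% and 73.4% in the last. Promoters with 11 to 30 CpGs had medians of 54.6%, 54.2%, 59.5% and 59.1%, and those with over 30 CpGs lay between 1.34% and 1.52%. The level was thus lower in promoters with more CpGs, while within the CpG-poor set it was not. The 448 members with 3 CpGs had medians of 67.0% and 59.8% in eYFP- cells at P2 and P60, and the 320 with 10 CpGs had 70.9% and 70.8%. The 329 promoters with 11 CpGs, just outside the limit, had 69.7% and 69.6%. The 90 members with only 50 to 60 reads in their shallowest pool had 68.1% and 61.4%.

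**Figure D1:**
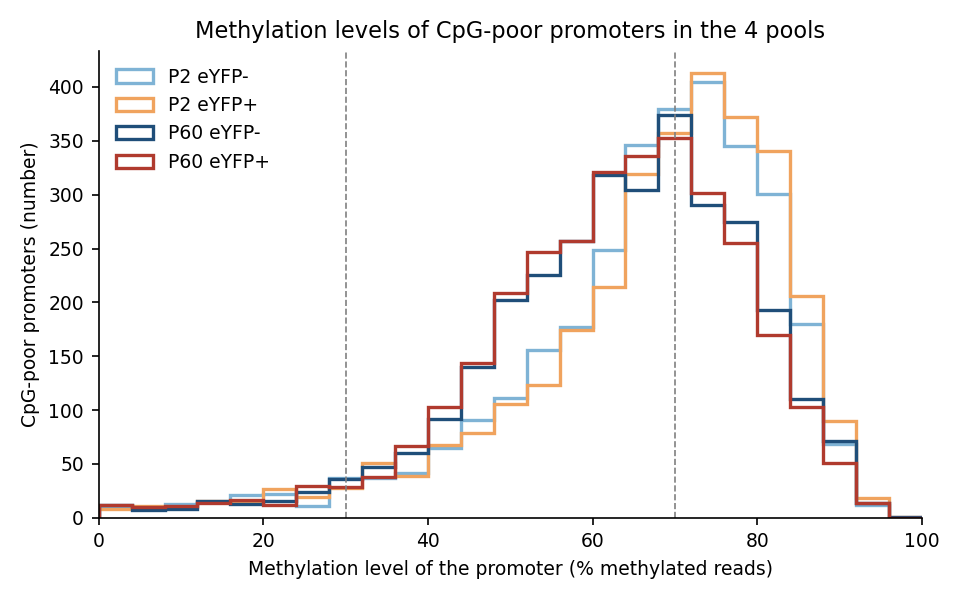
Number of CpG-poor promoters (y axis) by methylation level in percent (x axis, bins of 4 points) in the 4 pools, with dashed lines at the class limits of 30% and 70%. Most promoters lie between 50% and 90%, a small tail lies under 30%, and the P60 curves are shifted towards lower levels.

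Only a small minority was unmethylated. In 76 members (2.45%) the level was under 30% in all 4 pools (low class), in 811 (26.1%) it was at least 70% in all 4 (high class), and 2218 (71.4%) were intermediate. Among the other promoters, 81.0% were low, 11.5% intermediate and 7.50% high. In windows of 250 bp on each side, where promoters with more CpGs nearby also met the limits, 570 of 4159 were low. Averaged over the pools, 21 members were under 10% and 26 at or over 90%. The low class had medians of 14.2% and 15.5% in the P2 pools and 14.8% and 14.0% in the P60 pools, where the class limit in all 4 pools itself bars a promoter that rose to 30% or fell from it. The DNA around the low class was methylated. CpGs 2 to 20 kb from the TSS and outside HMRs had a median of 77.5% in the P2 eYFP- pool around low promoters and of 76.7% around high ones. In the average profile of the low class, the level was between 8.52% and 10.2% in the 250 bp after the TSS and between 69.7% and 73.0% about 875 bp upstream.

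Low members had more CpGs than intermediate ones, with a median of 8 against 5, and 7 in the high class. Their median GC content was 46.0%, against 42.2% and 44.6%. The letters TATAAA, the TATA box, which positions transcription, were found 15 to 40 bases before the TSS in 1 low promoter (1.32%), 134 intermediate promoters (6.04%) and 53 high promoters (6.54%), against 6.05% of all members and 2.18% of all promoters tested. The homeodomain core TAATTA, searched on both strands from 250 bases before to 50 after the TSS, was present in 11 low promoters (14.5%), 11.9% of all members and 4.71% of all promoters. The FOXA letters TGTTTAC, on both strands in the same stretch, were present in 7 low promoters (9.21%), 4.41% of all members and 3.00% of all promoters. GC boxes (GGGCGG) were found in 7.89% of low promoters, 4.12% of members and 45.8% of all promoters, and cAMP response elements (TGACGTCA) in 1.32%, 0.483% and 2.55%. CCAAT, searched in the 150 bases before the TSS, was present in 14.5%, 26% and 26.9%. These are shares of letter matches in small classes, given without a test.

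**Figure D2:**
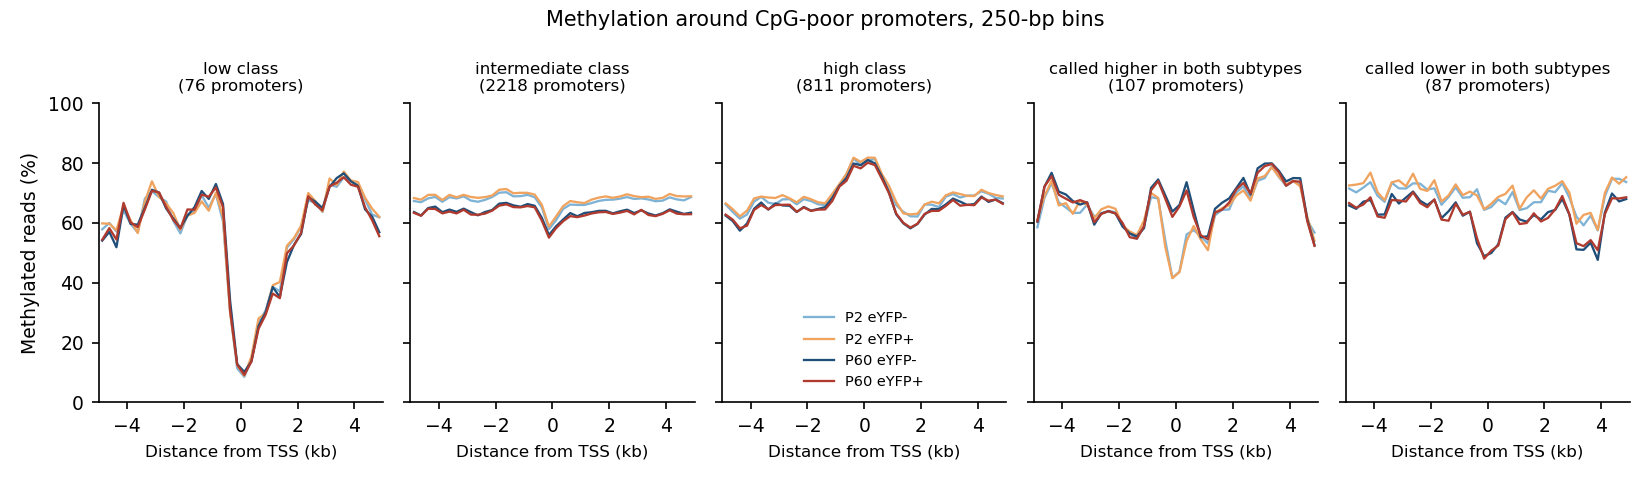
Methylation level in percent (y axis) by distance from the TSS in kb (x axis, 250-bp bins from 5 kb upstream to 5 kb downstream) in the 4 pools, for the low, intermediate and high classes and for members called higher or lower at P60 in both subtypes. The low class dips to 8.52% after the TSS, the high class stands above its surroundings, and both stage sets separate P2 from P60 near the TSS.

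The HMR calls of single libraries followed these classes. Both come from the same reads, so that the match is a description and no support for the classes. Of the low members, 65 (85.5%) had an HMR in at least 1 library and 29 in all 12 libraries, against 116 (5.23%) and 12 of the intermediate members and 3 (0.370%) and 0 of the high members. The 11 low members without any HMR had a median of 4 CpGs, against 8 for those with one. The number of CpGs thus moved with the HMR call, and its part in the result was not tested.

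The 10 lowest members, by the mean over the pools, were Zbtb20, Akr1c19, Percc1, Tmem176b, Tmem176a, Kcnk16, Cngb3, Iapp, Tbx5 and Akr1c14. Zbtb20, a zinc finger repressor, had 0 methylated of 127 reads in P2 eYFP- cells, which allows a level of up to 2.36%, 0 of 148 (up to 2.03%) in P2 eYFP+, 0 of 259 (up to 1.16%) in P60 eYFP- and 0.386% in P60 eYFP+. Percc1 lay between 0.416% and 0.874%. Tmem176a and Tmem176b, a divergent pair of membrane protein genes whose starts lie within 1 kb and whose windows share CpGs, lay between 0.321% and 1.43%. Cngb3, a channel subunit of cone photoreceptors, had 0 of 114 reads (up to 2.63%), 5.51%, 1.26% and 0 of 192 (up to 1.56%). Tbx5, a T-box factor best known from heart and forelimb, lay between 2.64% and 5.09%. Akr1c19 and Akr1c14 encode aldo-keto reductases, which act on steroids and other carbonyl compounds. Akr1c19 was listed at 0 of 104, 1.79%, 0 of 161 and 0 of 140 (0 allows up to 2.88%, 1.86% and 2.14%), and Akr1c14 at 1.91%, 11.7%, 0.442% and 2.17%. Chosen after their values were seen, 4 of the 8 Akr1c genes among the members were low, the other two being Akr1c12 (17.9%, 13.3%, 9.78% and 9.64%) and Akr1c13 (9.57%, 20.7%, 5.65% and 5.36%).

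Genes that define β cells stood out among the low promoters. The list of 92 annotated β-cell genes held 10 CpG-poor promoters, and 7 of them (70%) were low, against 69 of the 3095 other members (2.23%). The other 82 β-cell genes had over 10 CpGs, and 74 of these (90.2%) were low, against 81.0% of all promoters with over 10 CpGs. Kcnk16, which encodes the TALK-1 potassium channel of β cells, had 1.23%, 0.787%, 2.00% and 1.18% in the P2 eYFP-, P2 eYFP+, P60 eYFP- and P60 eYFP+ pools, the order used from here on. Iapp, islet amyloid polypeptide, a hormone released together with insulin, had 2.02%, 4.85%, 1.43% and 0.323%. The highest of these values was the 4.85% of Iapp in the P2 eYFP+ pool. Iapp differed by -4.53 points between the stages in eYFP+ cells (Fisher's exact test, adjusted p = 0.0058), less than the 10 points asked for in a call. Slc2a2, the glucose transporter GLUT2, had 7.79%, 6.41%, 7.29% and 5.50%. Prss53, a serine protease found in β cells, had 17.8%, 21.3%, 13.5% and 14.8%, and Ucn3, urocortin 3, a peptide of mature β cells, 19.3%, 23.1%, 14.9% and 13.9%. These 5 promoters and that of Ins2 had an HMR in all 12 libraries, and the DNA 2 to 20 kb away was at 73.2% to 84.0%.

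Not every islet gene with few CpGs was unmethylated. Nupr1, a stress response factor, had 57.1%, 49.6%, 60% and 61.1%, and Trpm5, a cation channel of taste cells and β cells, 58.1%, 58.0%, 56.9% and 60.7%. Among hormones of other islet cells, Ppy, pancreatic polypeptide of PP cells, had 87.3%, 82.9%, 86.4% and 85.7%. Ghrl, ghrelin, had 71.5%, 67.3%, 78.2% and 78.5%. Both hormone promoters were thus far above the insulin genes in every pool. Vip, a neuropeptide of islet nerves, was low, with 24.8%, 29.8%, 27.9% and 26.4%, and had an HMR in 5 of the 12 libraries. The list of islet hormones had 4 CpG-poor promoters, 2 of them low.

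**Figure D3:**
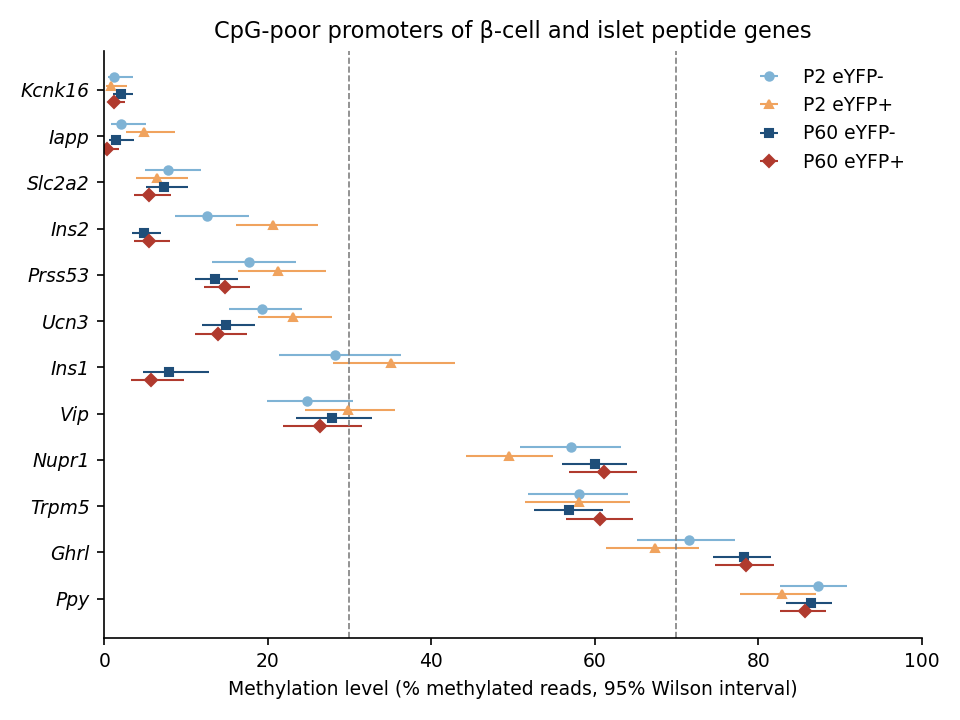
Methylation level in percent (x axis) of 12 islet-gene promoters (y axis) in the 4 pools, with 95% Wilson intervals. Kcnk16 and Iapp lie under 5% in every pool, Ins1 drops from 28.3% and 35.1% at P2 to 7.87% and 5.74% at P60, and Ppy stays above 80%.

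The insulin promoters differed between the stages. Ins2 had 12.6% (95% Wilson interval 8.72 to 17.8), 20.6% (16.1 to 26.1), 4.86% (3.36 to 6.97) and 5.47% (3.70 to 8.01), so that the intervals of the P60 pools lay under those of the P2 pools. Ins1 had 28.3% (21.4 to 36.3), 35.1% (28.0 to 42.9), 7.87% (4.74 to 12.8) and 5.74% (3.31 to 9.77). Ins1 fell by 20.4 points in eYFP- cells (95% interval 12 to 29, Fisher's exact test, adjusted p = 3.7e-05) and by 29.3 points in eYFP+ cells (21.2 to 37.5, adjusted p = 4.1e-11). It was the only one of the 3105 with an HMR in none of the 4 P2 libraries and all 8 P60 libraries, a pattern that 0.0155% of the promoters tested had. Ins2 fell by 15.2 points in eYFP+ cells (9.94 to 20.9, Fisher's exact test, adjusted p = 1.1e-07). In eYFP- cells the difference of Ins2 was -7.70 points (Fisher's exact test, adjusted p = 0.0057), short of the 10 points asked for. The call of Ins2 in eYFP+ cells was lost with only CpGs of at least 10 reads in each pool, where the difference was -3.35 points (Fisher's exact test, adjusted p = 0.254), and with 250 bp on each side of the TSS, where it was -2.34 points. Ins1 had too few CpGs for that window. With reads divided by the number of CpGs, the calls of Ins1 and Ins2 were lost, like all others. Ins1 then had an unadjusted p of 0.047 in eYFP- and 0.0012 in eYFP+ cells (Fisher's exact test).

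The loss lay inside the genes. The Ins1 CpG 359 bp upstream was at 0% to 6.7% in all pools, and the intronic CpG at +241 at 2.0% to 20%. The 3 CpGs of the coding exon, at +462, +489 and +492, were at 35.7% to 64.3% at P2 and 5.0% to 16.1% at P60, with 22 to 41 reads each. Ins2 had the same arrangement. Its 5 CpGs from -395 to +140, outside the transcript, in the UTR and in the intron, were at 9.1% or less in every pool. The 4 CpGs of its coding exon, from +209 to +359, were at 31.0% to 70% at P2 and 4.0% to 16.7% at P60. These exon CpGs had only 7 to 29 reads in the P2 pools, against 23 to 43 at P60. Ins1 and Ins2 are closely related in sequence, so that reads of their coding exons may not be told apart, and the Apple allele lies at Ins2. The part of either in these values was not tested.

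**Figure D4:**
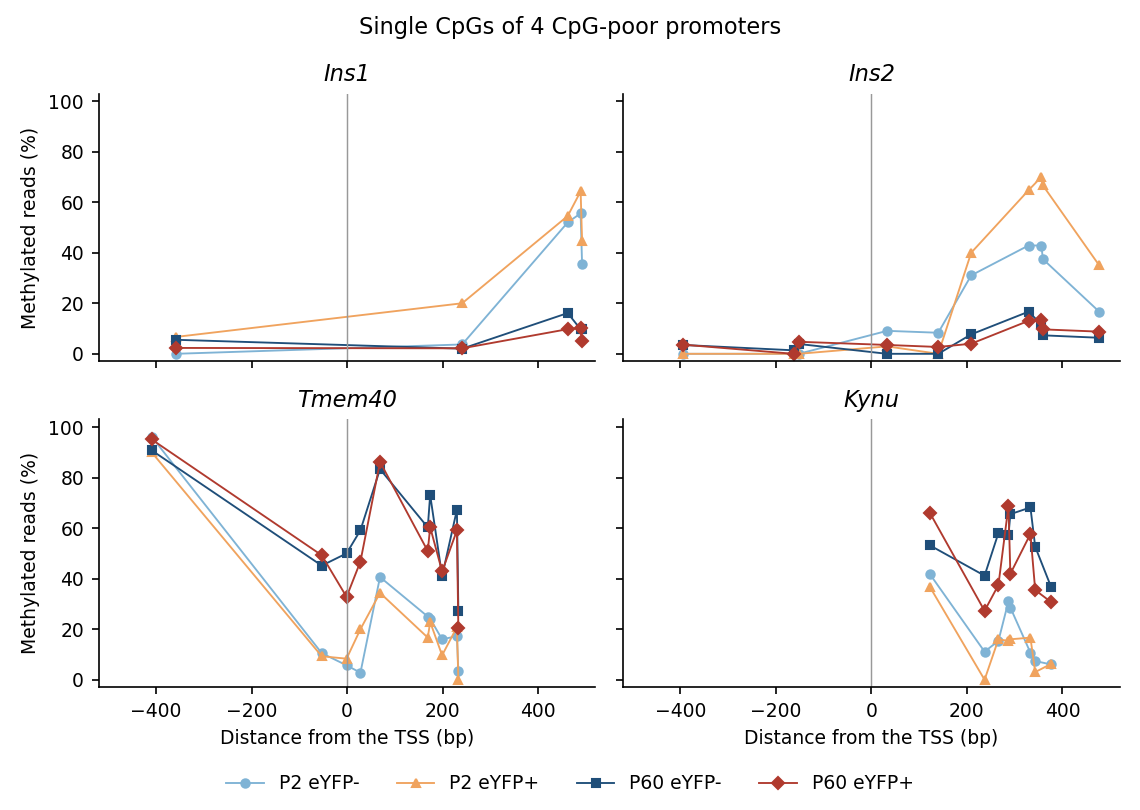
Methylation level in percent (y axis) of single CpGs by distance from the TSS in bp (x axis) at Ins1, Ins2, Tmem40 and Kynu in the 4 pools. At Ins1 and Ins2 the P2 and P60 pools separate mainly at CpGs inside the gene, and at Tmem40 and Kynu the P60 pools are higher at each CpG within 376 bp of the TSS.

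Promoters of other cell types were seldom low, as were CpG-poor promoters in general. None of 21 acinar, 23 blood, 2 endothelial and 12 muscle promoters was low, and 4, 8, 0 and 4 of them were high. Over all members 2.45% were low and 26.1% high, so that lists this short would hold few low promoters. Whether their classes differ from those of all members was not tested. The 4 acinar and leukocyte markers that were members were methylated. Their mean levels over the pools were 83.8% at Ctrb1 (chymotrypsinogen, acinar), 73.7% at Cd52, 76.6% at Cd53 and 59.6% at Lyz2 (leukocytes). The endothelial genes Robo4 and Vwf had 50.4%, 44.9%, 51.9% and 47.8%, and 64.1%, 61.0%, 72.2% and 72.9%. Of 28 liver promoters, 2 were low. They belonged to Gc, the vitamin D binding protein, with 15.8%, 20%, 24.6% and 18.9%, and to Serpina1b, an α1-antitrypsin gene, with 16.2%, 22.4%, 29.9% and 27.7%. Serpina1d (34.0%, 28.7%, 37.2% and 40%) and the complement gene C9 (29.7%, 26.5%, 37.8% and 45.2%) followed. The lowest acinar promoters were Pnliprp1, a pancreatic lipase-related protein, with 25.5%, 31.0%, 43.4% and 41.1%, Spink1, a trypsin inhibitor, with 36.4%, 33.7%, 47.2% and 41.7%, Klk1 with 40.2%, 40%, 47.5% and 40.2%, and Reg1 with 47.2%, 45.2%, 40.7% and 38.6%. Hba-a1, an α-globin gene, had 34.0%, 22.0%, 34.3% and 43.9% on 50 to 140 reads and was the lowest of the blood genes, ahead of S100a9 (54.3%, 60.3%, 43.5% and 54.4%), Lyz2 (58.3%, 62.3%, 59.8% and 58.0%) and Cd3g (59.9%, 65.2%, 60.3% and 61.7%).

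Chemosensory receptors made up a large share of the CpG-poor promoters. There were 720 olfactory receptors and 191 vomeronasal, taste and trace amine receptors, which are expressed in the sensory neurons of the nose and in taste cells. Of the olfactory receptors, 607 were intermediate, 110 high and 3 low, namely Or5ak22 (10.3%, 9.15%, 21.0% and 13.6%), Or2av9 (23.7%, 20.2%, 22.4% and 16.5%) and Or5af2 (16.1%, 25.8%, 29.5% and 25.6%). Of the other receptors, 171 were intermediate and 20 high. Both receptor groups had a median of 4 CpGs.

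Between P2 and P60, CpG-poor promoters lost methylation more often than they gained it. For each promoter, the methylated and unmethylated reads of the pools were compared by a two-sided Fisher's exact test, adjusted over all 19381 promoters, and called where the adjusted p was under 0.05 and the levels were 10 or more points apart. In eYFP- cells, 277 members (8.92%) were called lower at P60 and 170 (5.48%) higher, whereas over all promoters tested 1.94% were called lower and 3.91% higher. In eYFP+ cells, 517 members (16.7%) were called lower and 166 (5.35%) higher, against 3.3% and 3.75% of all promoters. Most other promoters were near 0 at P2 and could not fall by 10 points, so that the background holds many promoters in which a loss could not be called. Among promoters with at least 50% methylation in both P2 pools, 256 of 2620 members (9.77%) were called lower and 85 (3.24%) higher in eYFP- cells, and 492 (18.8%) lower and 79 (3.02%) higher in eYFP+ cells. Of the 2174 other promoters at that level, 70 (3.22%) were called lower and 137 (6.30%) higher in eYFP-, and 93 (4.28%) lower and 138 (6.35%) higher in eYFP+ cells. With 250 bp on each side of the TSS, where 4159 promoters met the same limits, gains outnumbered losses, with 448 higher and 139 lower in eYFP- and 419 higher and 243 lower in eYFP+ cells. The test treats the reads of 1 DNA fragment on neighbouring CpGs as independent. With reads divided by the number of CpGs, no promoter of any kind was called in any comparison, and 39 members in eYFP- and 66 in eYFP+ cells had an unadjusted p under 0.05. Of the 39, 26 were higher and 13 lower at P60, and of the 66, 31 were higher and 35 lower, so that under this scaling losses did not outnumber gains in eYFP- cells. The Fisher tests compare pools and not mice.

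The median member differed by -3.72 points in eYFP- and by -5.56 points in eYFP+ cells, and the median of the other promoters by -0.00 and -0.14 points. The DNA around the members differed by about as much, with medians of -3.80 and -5.46 points 2 to 20 kb away and outside HMRs. Restricted to promoters with at least 50% methylation in both P2 pools, the 2620 members had medians of -4.59 and -6.38 points and the 2174 other promoters -0.77 and -1.65 points, beside -4.09 and -5.76, and -0.40 and -1.51 points, in their surroundings. Across the 3105 promoters, the stage differences of promoter and surroundings had a Pearson r of 0.543 in eYFP- and 0.564 in eYFP+ cells, and those of the 2 subtypes had an r of 0.645. These are descriptions over promoters, which share pools and, in gene clusters, surroundings. The low class had medians of 0.67 and -0.93 points.

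**Figure D5:**
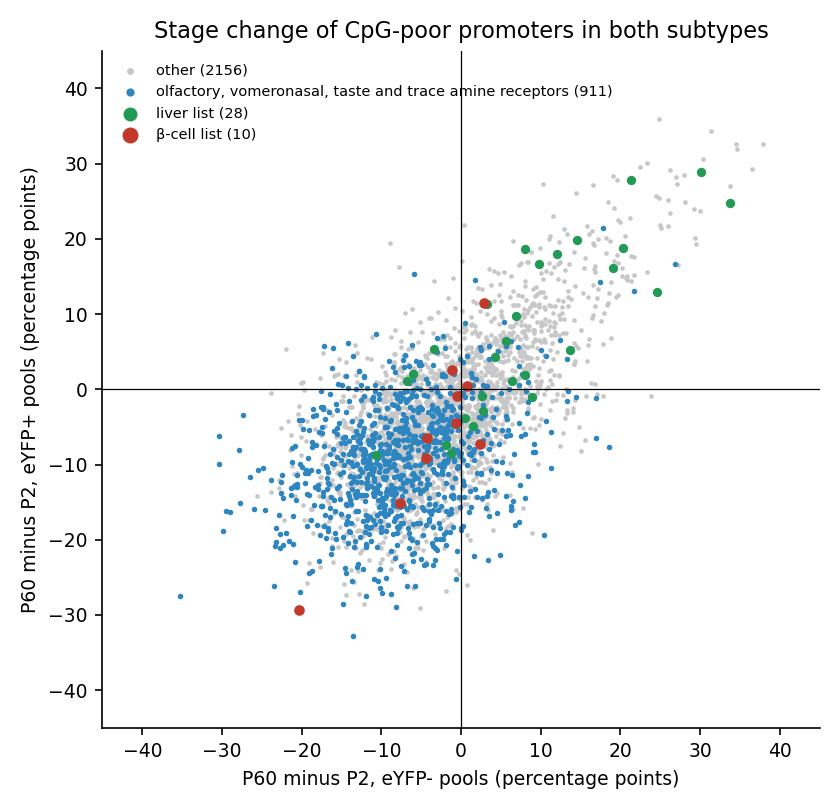
Difference in methylation, P60 minus P2, in percentage points in eYFP- cells (x axis) and eYFP+ cells (y axis), 1 point per CpG-poor promoter, with 911 chemosensory receptors, 28 liver genes and 10 β-cell genes in colour. The receptors lie mostly to the lower left of 0, most liver genes to the upper right, and Ins1 is the β-cell gene with the most negative differences.

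Members called in both subtypes numbered 107 for gains (3.45%) and 87 for losses (2.80%), against 2.74% and 0.645% of all promoters. The shared gains were 62.9% of the eYFP- list and 64.5% of the eYFP+ list, and the shared losses 31.4% and 16.8%. The subtype comparisons used different libraries. Promoters that gained went from medians of 48.6% and 47.7% at P2 to 69.6% and 69.3% at P60, with surroundings that differed by 1.66 and 0.49 points. Promoters that lost went from 70.3% and 68.8% to 52.5% and 52.9%, with surroundings that differed by -6.82 and -8.50 points. The gaining promoters had a median of 8 CpGs and 48.4% GC, and the losing ones 5 CpGs and 40.6% GC. In the average profile of eYFP- cells, the gaining set went from 41.6% to 63.8% in the 250 bp before the TSS and from 63.6% to 63.2% about 2125 bp upstream. The losing set went from 64.4% to 48.9% and from 71.2% to 66.0%, so that its difference extended beyond the promoter.

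Among the 8 largest gains, Tmem40, a transmembrane protein gene, had 22.4%, 22.7%, 60.2% and 55.2%. It rose by 37.8 points in eYFP- (95% interval 31.6 to 43.5, Fisher's exact test, adjusted p = 2.1e-26) and by 32.6 points in eYFP+ cells (26.1 to 38.5, adjusted p = 3.1e-19). Kynu, kynureninase, an enzyme of tryptophan breakdown, had 19.7%, 14.2%, 54.2% and 46.7%, and rose by 34.5 and 32.5 points (Fisher's exact test, adjusted p = 2.6e-12 and 1.5e-13). At Tmem40, 9 of the 10 CpGs, from 53 bp upstream to 233 bp downstream, were higher in both P60 pools than in either P2 pool, and the CpG at -409 was at 90% to 96.2% in all. At Kynu, all 8 CpGs lay in the intron and were higher in both P60 pools than in either P2 pool. Both promoters had an HMR in all 4 P2 libraries and in none of the 8 P60 libraries.

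The other 6 of these gains were at genes of several kinds. Fcmr, the receptor for IgM, had 40.5%, 35.1%, 75.2% and 67.1%, and Gpr183, an oxysterol receptor of lymphocytes, 47.8%, 49.1%, 84.4% and 78.4%. Btg4, which acts in RNA decay in oocytes and early embryos, had 44.6%, 35.7%, 76.0% and 70%. Pex5l, a regulator of HCN channels, had 39.7%, 43.3%, 70.1% and 73.8%. In all of these, both P60 pools were far above both P2 pools. Ciroz had 31.5%, 34.1%, 65.3% and 61.1%, and Gsta3, a glutathione transferase, 28.7%, 25.6%, 53.5% and 61.6%. The 6 genes rose by 24.9 to 36.5 points, with adjusted p between 3.2e-22 and 2.4e-08 (Fisher's exact test).

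Besides Ins1, the 8 largest losses were mostly receptor genes. Or10al7 had 62.1%, 67.6%, 39.4% and 46.5% and fell by 22.7 points in eYFP- (95% interval 12.7 to 32.1, Fisher's exact test, adjusted p = 0.00018) and by 21.1 points in eYFP+ cells (10.6 to 30.9, adjusted p = 0.0014). Or8k32 had 79.2%, 73.2%, 56.0% and 52.9%, Or4f14 68.3%, 63.2%, 42.3% and 47.3%, and Or5b95 77.6%, 76.6%, 54.3% and 58.1%. The vomeronasal receptors Vmn2r102 (64.9%, 63.5%, 42.5% and 42.8%) and Vmn1r25 (66.7%, 68.2%, 48.8% and 45.4%) behaved alike, and so did 4930516K23Rik (56.9%, 55.9%, 39.2% and 32.3%). The CpGs around these 7 genes were also lower at P60, for instance at Or10al7 69.9% against 75.3% in eYFP- cells and 68.7% against 76.4% in eYFP+ cells.

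Receptor families were called lower more often than higher. Of the 720 olfactory receptors, 91 (12.6%) were called lower and 4 higher in eYFP- cells, and 164 (22.8%) lower and 1 higher in eYFP+ cells, with 32 called lower in both. Over all members 8.92% and 16.7% were called lower, and over all promoters 1.94% and 3.3%. Of the intermediate class, which holds most of the receptors, 11.4% and 21.0% were called lower. All members with 4 CpGs, receptors included, went from a median of 68.3% to 62.8% in eYFP- and from 70.8% to 61.3% in eYFP+ cells. The part of class or CpG number in the receptor calls was not tested. The median differences of the olfactory receptors were -7.26 and -9.25 points, beside -6.31 and -8.16 points in the surrounding DNA. Of the 191 vomeronasal, taste and trace amine receptors, 29 (15.2%) were called lower and 2 higher in eYFP- cells and 51 (26.7%) lower and 1 higher in eYFP+ cells, with medians of -8.54 and -10.1 points beside -6.55 and -8.44 points around them. Over all 3105 members the medians were -3.72 and -5.56 points. The late cornified envelope and small proline-rich genes, which lie in 1 cluster of skin genes, had medians of -7.32 and -10.5 points, with 4 of 29 called lower in eYFP- and 11 in eYFP+ cells.

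Liver promoters that were called were higher at P60, and none was lower. Of 28 promoters, 8 (28.6%) were called higher in eYFP- and 10 (35.7%) in eYFP+ cells, 7 of them in both, against 5.48% and 5.35% of all members and 3.91%, 3.75% and, in both, 2.74% of all promoters. The list started from median levels of 46.6% and 43.0% in the P2 pools, which leaves room for a gain. Of the 350 members under 50% in both P2 pools, 20.3% were called higher in eYFP- and 20.6% in eYFP+ cells. The liver list's median differences were 6.66 and 5.32 points beside -0.71 and -3.03 points around them. The 7 were Crp, Itih2, Ambp, Slco1b2, Apoc3, Serpina1a and Serpina1e, which encode plasma proteins and, for Slco1b2, a bile acid carrier, chosen by their calls. Itih2 had 33.1%, 26.3%, 54.4% and 54.2%. Serpina1b rose by 13.7 points in eYFP- cells (adjusted p = 0.0036, Fisher's exact test) and differed by 5.25 points in eYFP+ cells (adjusted p = 0.45). C9 differed by 8.05 points in eYFP- cells (Fisher's exact test, adjusted p = 0.39) and rose by 18.6 points in eYFP+ cells (adjusted p = 0.0079). The 4 Serpina1 genes called are close copies, whose reads cannot always be assigned, and are not independent of each other.

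The other lists were short, so that few calls made large shares. Called higher were 14.3% of acinar promoters in each subtype, and 25% of muscle promoters in eYFP+ and 0% in eYFP- cells. In eYFP- and eYFP+ cells, 5.48% and 5.35% of all members and 3.91% and 3.75% of all promoters were called higher. Called lower in eYFP+ cells were 17.4% of blood promoters, 16.7% of all members and 3.3% of all promoters. Whether the lists differ from all members was not tested. Of 21 acinar promoters, 3 were called higher and none lower in eYFP- cells, and 3 higher and 4 lower in eYFP+ cells. Of 23 blood promoters, 2 were called lower in eYFP- cells, and 1 higher and 4 lower in eYFP+ cells. Of 12 muscle promoters, Myot (31.1%, 26.4%, 31.3% and 43.4%), Myh7 (59.6%, 59.5%, 66.1% and 72.5%) and Tnni1 (67.0%, 63.4%, 69.6% and 76.7%) rose in eYFP+ cells. Vwf rose in eYFP+ cells by 11.9 points (adjusted p = 0.0054, Fisher's exact test), as did the islet genes Nupr1 by 11.5 points (adjusted p = 0.0079) and Ghrl by 11.2 points (adjusted p = 0.0085). The β-cell list had 10 members, of which Ins1 was called lower in both subtypes, and in eYFP+ cells Ins2 was called lower and Nupr1 higher. Whether the stage difference of a single gene differed between the subtypes was not tested. The remaining 16 gene families, from keratins to solute carriers, had medians between -8.58 (caseins) and 1.32 points (solute carriers) in eYFP- cells and between -10.5 (kallikreins) and -0.07 points (interleukins) in eYFP+ cells.

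HMRs gave the stage comparison over libraries. An HMR touched 3.41% and 3.83% of the CpG-poor promoters in the P2 eYFP- libraries, and 3.77% and 3.32% in the P2 eYFP+ libraries. At P60 the shares were 2.64%, 2.74%, 2.06% and 2.48% in eYFP- and 2.42%, 2.71%, 2.22% and 2.96% in eYFP+ cells. All 8 P60 libraries lay below all 4 P2 libraries, with means of 2.53% ± 0.294 (SD, n = 8) and 3.58% ± 0.255 (SD, n = 4). The difference was -1.05 points (two-sided exact permutation test, p = 0.0020, the smallest that the regroupings can give). The P60 libraries also had fewer HMRs in all, and the part of that in the result was not tested. Among the other promoters the share went from 85.3% ± 0.204 to 83.7% ± 0.224, so that in points the difference of CpG-poor promoters minus that of the others was 0.554 (exact permutation test, p = 0.0040). The shares start from 3.58% and 85.3%, and the difference in points says nothing of their relative change. It turned to -2.11 points when the members were found again in windows of 250 bp on each side. Without the P2 eYFP- libraries the stage difference of the members was -1.01 points (p = 0.022, exact permutation test). Within the low class, the mean share with an HMR was 67.1% at P2 and 58.7% at P60.

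The pattern of an HMR in all 4 P2 libraries and in no P60 library was found in 10 members (0.322%), against 0.49% of all promoters. They were Kcnj13, Pappa2, Itih2, Kynu, C1qtnf4, Kpna7, Tmem40, Ssc5d, Slc45a4 and Stx19. All 10 had a higher level at P60 than at P2 in both subtypes, and 7 were called higher in both, which is a description, since HMRs and levels come from the same reads. Pappa2, a protease that cleaves IGF binding proteins, had 9.40%, 10.8%, 38.8% and 30.9%. Kcnj13, a potassium channel, had 28.9%, 34.2%, 51.3% and 63.7%. Stx19, a syntaxin, stayed in the low class with 4.05%, 1.38%, 14.6% and 10.8%.

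The subtypes differed at very few CpG-poor promoters. At P2, 2 members were called, against 0.124% of all promoters, and at P60, 10 members (0.322%), against 0.0929%. The levels of eYFP- and eYFP+ cells had a Pearson r of 0.93 at P2 and 0.95 at P60 over the 3105 promoters, and the subtype differences at P2 and at P60 had an r of -0.01. With unadjusted p under 0.05 there were 205 members at P2 (6.60%) and 252 at P60 (8.12%), below the 10.6% and 12% of all promoters. Members had fewer reads, with medians of 155 to 249 per pool against 1294.5 to 3175 in the other promoters. The shares are therefore not on an equal footing, and the part of depth was not tested. No member was called at either stage with a limit of 20 points or with reads divided by the number of CpGs. At P2, Ptgds, a prostaglandin D synthase, was at 64.3% in eYFP- and 81.6% in eYFP+ cells, a difference of 17.3 points (95% interval 9.12 to 25, Fisher's exact test, adjusted p = 0.014), and at 79.4% and 73.3% at P60. Or6c212 was at 71.7% and 91.5% (19.8 points, 9.30 to 30.1, Fisher's exact test, adjusted p = 0.039) and at 75.2% and 74.6% at P60. Neither gene was called at the other stage. No member was called lower in eYFP+ cells at P2, where the most negative differences were at Gpr35 (73.3% and 51.5%) and Iigp1c (-20.3 points), both with an adjusted p of 0.14.

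At P60, 4 members were called higher and 6 lower in eYFP+ cells. The highest differences were at 4930503E14Rik (49.5% and 66.6%, adjusted p = 0.022, Fisher's exact test), H2-M9 (53.6% and 69.2%, adjusted p = 0.014) and the carboxylesterase gene Ces1a (71.9% and 87.3%, adjusted p = 0.046). The most negative were at the chemosensory receptors Vmn1r46 (67.7% and 51.4%, Fisher's exact test, adjusted p = 0.042), Or8b43 (78.9% and 62.7%, adjusted p = 0.013) and Taar8a (89.8% and 75.3%, adjusted p = 0.018). No β-cell list promoter was called between the subtypes at either stage. Over libraries, the share of CpG-poor promoters with an HMR differed by -0.0805 points between eYFP+ and eYFP- at P2 (exact permutation test, p = 0.67, where 2 against 2 libraries cannot go below 0.33) and by 0.0966 points at P60 (p = 0.71). The stage difference itself differed by 0.177 points between the subtypes (exact permutation test, p = 0.60).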

How the data were processed

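Tagmentation-based whole-genome bisulfite sequencing was made from 12 libraries. The authors trimmed reads with Trim Galore 0.6.6 and cutadapt 1.16, checked them with FastQC, aligned them to mm39 by abismal and, with MethPipe, counted methylated and unmethylated reads per CpG and called HMRs. SAMtools 1.5 is named in the submitters' processing notes. The deposited counts are read counts per CpG in 1 table per stage, pooled over the libraries of a subtype, and a score of the difference, which was not used. The deposited HMR lists give positions per pool and per library. The subtype of each column of counts is not named in the sources used here. Column 1 was taken as eYFP- because HMRs found only in its pool were more often present in eYFP- than in eYFP+ libraries (24.0% to 27.2% against 4.55% to 6.00% at P2, and 9.91% to 20.7% against 5.74% to 6.42% at P60). All p-values over pools depend on that mapping for their subtype, not for their size.

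Starts came from canonical transcripts of GENCODE release M39 on GRCm39. A level was the share of methylated reads over the CpGs of a window, with a 95% Wilson interval, and differences had Newcombe intervals. Both cover counting error only, and a count of 0 was read as allowing 3 counts. Between pools, Fisher's exact test (two-sided) was used per promoter, with adjustment by Benjamini and Hochberg over all promoters tested, genome-wide, in SciPy 1.17.1 and statsmodels 0.14.6 in Python 3.11.15. The test was checked on simulated data with independent reads, which cannot show the effect of reads that share a DNA fragment. Libraries were compared by exact permutation tests. Surroundings were CpGs 2 to 20 kb from the TSS outside HMRs. The p-values of Fisher's exact test likewise cover counting error between pools and no spread between libraries. Whether libraries of a group with the same sex label came from separate mice is not stated. The p-values of the permutation tests therefore measure the spread between libraries.

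Genes were named by rule, namely members of the gene lists (the 4 lowest for lists of over 12), the 10 lowest members, the 8 largest stage changes in each direction called in both subtypes with at least 100 reads per pool, and the 3 largest subtype differences called in each direction (the 2 largest where none was). Some items that the rule names are not reported here. The members and lists were chosen with earlier results of these data known. At P60, same-numbered libraries of the subtypes, which share a sex label, deviated together over 65638 HMRs, with correlations of 0.147, 0.197, 0.296 and 0.135, so that the numbers were taken to pair the libraries. Some libraries of another number and the same sex label did as well (0.222, 0.191 and 0.103), so that the pattern follows the sex label as well as the number. Alternatives were other windows, limits, overlaps and left-out libraries. The authors' candidate differentially methylated regions entered no result, but their number in each direction, set beside the study's description of them, also bore on which column was taken as eYFP-.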

Additional observations from a re-analysis of the deposited data

How the results depend on the processing

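The stage difference in the share of CpG-poor promoters with an HMR kept its sign in the alternatives run, from -1.14 to -0.972 points with single libraries left out, -3.22 points in windows of 250 bp on each side, and -0.656 and -0.745 points where the HMR covered at least 50% of the window or held the TSS base. Within eYFP- libraries it was -1.14 and within eYFP+ libraries -0.966 points, both with an exact permutation p = 0.067, the smallest that 15 regroupings allow. The difference of CpG-poor promoters minus that of the others was 0.490 to 0.668 points with single libraries left out, 1.63 and 1.42 points under those overlap rules, and -2.11 points in the 250 bp windows. The subtype difference at P60 was -0.0429 to 0.215 points with single libraries left out, without P60 eYFP- replicate 3 and eYFP+ replicate 4 being the lowest, and -0.129 points within P60 replicates 1 and 2. With the replicate number as a block it was 0.0966 points (exact sign-flip test, p = 0.75), and at P2 -0.0805 points (p = 1). The 16 sign patterns at P60 and 4 at P2 are too few for a p under 0.05. These blocked tests therefore could not have changed a call. Same-numbered libraries at P2 had a correlation of only 0.0132 over HMRs, so that their pairing was not established. The subtype difference at P2 was -0.306 to 0.145 points with single libraries left out (0.129 and 0.145 without replicate 2 of eYFP- or eYFP+), 0.0161 points where the HMR covered at least 50% of the window, and 0.433 points in the 250 bp windows.

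Counts of calls followed their limits. With 20 points asked for, 48 members were higher and 67 lower at P60 in eYFP- cells, 50 higher and 114 lower in eYFP+ cells, and 0 differed between subtypes at P2 or P60. Windows of 250 bp gave 448, 139, 419 and 243 stage calls, 570 low promoters and 16 low β-cell promoters. Reads divided by the number of CpGs gave 0 calls in all 6 counts, with 39 and 66 members at an unadjusted p under 0.05 by stage and 0 by subtype. With 100 reads per pool, 1 promoter differed between subtypes at P2. Class limits of 20% and 80% gave 39 low, 184 high and 3 low β-cell promoters. For the named genes, 970 of 1066 stage results kept their side of the threshold, 94 lost the call and 2 gained it. A change of sign was looked for only where the main result was called, and 0 were found. Depth limits promoters with few CpGs most, since the shallowest pool of a member may hold only 50 reads.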
